A study of Caenorhabditis elegans with 2 samples.

Results

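The genes for the protein components of the cytosolic ribosome were examined for peaks of tagged REF-1. They were taken as every protein-coding gene with a symbol that starts with rpl-, rps- or rla-, which gave 81 of the 19973 protein-coding genes on the 6 nuclear chromosomes. By symbol, 47 of these were classed as large subunit genes (rpl), 31 as small subunit genes (rps) and 3 as stalk genes (rla). The classes follow the symbols alone, and whether each product is part of the mature ribosome was not checked. Genes for mitochondrial ribosomal proteins were not among them. The rule also leaves out ubl-1 and ubq-2, which encode ubiquitin fused to a small and a large subunit protein, and rack-1, which encodes a ribosome-bound scaffold protein.

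The data are chromatin immunoprecipitation with sequencing (ChIP-seq) on whole Caenorhabditis elegans. There was 1 group of 2 biological replicates, midembryos of 3 hours obtained by egg bleaching, of strain RW12224 with the allele st12224[ref-1::TY1::EGFP::3xFLAG] II. The tag was inserted into ref-1 by CRISPR, the precipitation used an antibody against GFP, and the chromatin was sonicated to 200 to 800 bp. No untagged or mutant group was analysed here, and whole embryos do not show in which cells a site was occupied.

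Ribosomal proteins are needed in balanced amounts and are made from many genes spread over the genome. Together with ribosomal RNA they form the small subunit, which decodes the messenger RNA, and the large subunit, which joins amino acids. The stalk of the large subunit recruits the translation factors that hydrolyse GTP. Their genes are among the most strongly transcribed of a growing embryo. REF-1 belongs to a group of nematode transcription factors with a pair of basic helix-loop-helix domains, related to the HES repressors that act downstream of Notch.

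Tagged REF-1 had a peak past the authors' threshold at 6 ribosomal protein genes, rpl-3, rpl-15, rpl-35, rps-28, rps-24 and rpl-20. Each had a peak summit in its promoter window, from 1000 bp upstream to 200 bp downstream of an annotated transcript start, in the conservative thresholded set, which holds the 675 peaks of the replicate pair that passed the authors' limit on the irreproducible discovery rate (IDR, which is low for peaks that rank alike in both inputs). That is 7.41% of the 81 genes (exact 95% binomial interval 2.77% to 15.4%, which covers counting error only), against 284 of 19973 protein-coding genes, or 1.42%. In the other thresholded set of the pair the count was 5 (6.17%), against 1.41% of all protein-coding genes, and the gene missing there was rpl-20. The own thresholded set of replicate 1 held 4 of the ribosomal protein genes (4.94%), against 0.651% of all, and that of replicate 2 held 3 (3.70%), against 0.931%. The genes rpl-3, rpl-15 and rpl-35 were in all 4 sets. No test of these counts was made, because the gene group was chosen with earlier results of these data known.

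The sequences at 5 of these summits show what lay under the peaks. The 201 bases centred on each summit are printed on the strand of the gene, from the RefSeq genome sequence of the same assembly (ce11, WBcel235), and none overlaps an annotated exon of a protein-coding gene. That of rps-1 is shown as well, because its candidate peak fell just under the IDR limit. Capitals mark the word AGTGTA, the word GCGTGT, the word GCCTAAA and the word TACGGT on either strand, all of which were chosen after the windows of the members had been seen.
rpl-15, chrIV:654845-655045, minus strand: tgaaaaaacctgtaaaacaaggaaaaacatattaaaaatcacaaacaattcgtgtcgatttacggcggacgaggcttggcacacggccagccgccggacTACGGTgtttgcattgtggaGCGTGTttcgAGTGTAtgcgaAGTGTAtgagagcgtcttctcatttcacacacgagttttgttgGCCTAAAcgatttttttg
rpl-35, chrIII:7854592-7854792, plus strand: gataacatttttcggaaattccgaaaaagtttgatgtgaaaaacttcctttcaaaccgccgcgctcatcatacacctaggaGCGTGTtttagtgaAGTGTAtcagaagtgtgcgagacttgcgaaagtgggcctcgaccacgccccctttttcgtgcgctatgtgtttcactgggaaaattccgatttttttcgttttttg
rps-28, chrIV:1659129-1659329, plus strand: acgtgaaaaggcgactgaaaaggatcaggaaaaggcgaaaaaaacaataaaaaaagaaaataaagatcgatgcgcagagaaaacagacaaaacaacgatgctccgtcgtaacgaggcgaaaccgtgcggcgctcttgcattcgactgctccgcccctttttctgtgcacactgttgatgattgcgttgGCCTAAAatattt
rps-24, chrIV:385419-385619, plus strand: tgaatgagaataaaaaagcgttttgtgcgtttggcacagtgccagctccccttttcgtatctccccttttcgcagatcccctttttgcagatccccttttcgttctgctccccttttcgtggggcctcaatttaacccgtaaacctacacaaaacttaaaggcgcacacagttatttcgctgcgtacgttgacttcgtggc
rpl-20, chrIV:4749976-4750176, minus strand: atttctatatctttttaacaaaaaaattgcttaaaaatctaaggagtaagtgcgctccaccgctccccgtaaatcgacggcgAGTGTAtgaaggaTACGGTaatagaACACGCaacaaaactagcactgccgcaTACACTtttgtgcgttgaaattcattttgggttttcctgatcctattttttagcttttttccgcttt
rps-1, chrIII:4475565-4475765, plus strand: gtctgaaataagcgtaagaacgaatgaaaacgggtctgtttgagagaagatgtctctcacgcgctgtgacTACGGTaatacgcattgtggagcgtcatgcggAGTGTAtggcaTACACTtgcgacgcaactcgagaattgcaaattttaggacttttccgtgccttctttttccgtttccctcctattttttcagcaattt

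The strongest of the 6 was rpl-3 (WBGene00004414), whose product is a core protein of the large subunit that reaches towards the peptidyl transferase centre. Its peak had a signal of 150.4, and its summit lay 267 bp upstream of the nearest start. Signal is the authors' own value for each peak, on a scale that is not stated, and is used here only to describe and rank peaks. In the own lists of the replicates the best entry in the rpl-3 window had 78.1 in replicate 1 and 82.2 in replicate 2, so both replicates placed it first among the ribosomal protein genes. Within the conservative set the peak was rank 193 of 675, and rpl-3 was rank 70 of all protein-coding genes by its best entry.

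Next came rpl-15 (WBGene00004427), a large subunit gene, with a signal of 134.4 at chrIV:654807-655082 and a summit at 369 bp upstream. The replicates' own lists gave 63.0 in replicate 1 and 69.0 in replicate 2, with summits 13 bp apart. The gene rpl-35 (WBGene00004449) encodes a protein at the mouth of the tunnel through which the new peptide leaves the large subunit. Its peak at chrIII:7854554-7854829 had a signal of 123.8 and a summit at 442 bp upstream, with 56.6 in replicate 1 and 70.1 in replicate 2. These values put rpl-15 and rpl-35 close together, and the order of the 2 differed between the replicates.

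The small subunit gene rps-28 (WBGene00004497) had a signal of 100.3 at chrIV:1659091-1659366, with the summit 462 bp upstream. Its best entry had 57.8 in replicate 1 and 39.4 in replicate 2, and of the replicates' own sets it was only in that of replicate 1. The small subunit gene rps-24 (WBGene00004493), whose human counterpart is mutated in some cases of Diamond-Blackfan anaemia, had a signal of 90.3 at chrIV:385381-385656 and a summit at 368 bp upstream. Replicate 1 had 29.8 and replicate 2 had 61.8, so the higher replicate was the opposite one to that at rps-28. The peak of rps-24 was in both thresholded sets of the pair and in neither replicate's own set, and its score of 857 in the conservative set was the only one of the 6 below the maximum of 1000. The score rises as the global IDR falls, and 830 was the lowest score in the conservative set.

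The weakest of the 6 was rpl-20 (WBGene00004432), a large subunit gene, with a signal of 85.4 at chrIV:4749938-4750213 and a summit at 298 bp upstream. Replicate 2 had 44.4 at 287 bp upstream. The best entry of replicate 1 in this window had 17.1 and lay elsewhere, at 837 bp upstream. In the ranked list of the pair, however, the rpl-20 peak itself had signals of 37.6 and 44.4 in the 2 inputs. The value of 17.1 is therefore not a measure of this peak. The rpl-20 summit was also nearer to a start of another gene, Y17G9B.5, at 164 bp, than to its own gene, so the peak cannot be assigned to rpl-20 by position alone. The other 5 summits had the ribosomal protein gene as their closest protein-coding start.

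The 6 were also set beside all promoter peaks of the conservative set that lay away from tRNA, snoRNA and snRNA genes (small RNA genes, where many peaks of these sets lie). The median signal of the 6 was 112.1, against a median of 90.3 and quartiles of 80.3 and 120.7 over all 167 such peaks. The signals of rpl-3, rpl-15 and rpl-35 were above the upper quartile, and that of rpl-20 was below the median. Of the 167 peaks, 23 had at least the signal of rpl-3. None of the 6 summits lay within 100 bp of a small RNA gene, the nearest being a snoRNA gene 584 bp from the summit of rpl-15. In all, 13 ribosomal protein genes contain 19 small RNA genes, and none of those 19 had a conservative summit within 100 bp.

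**Figure D1:**
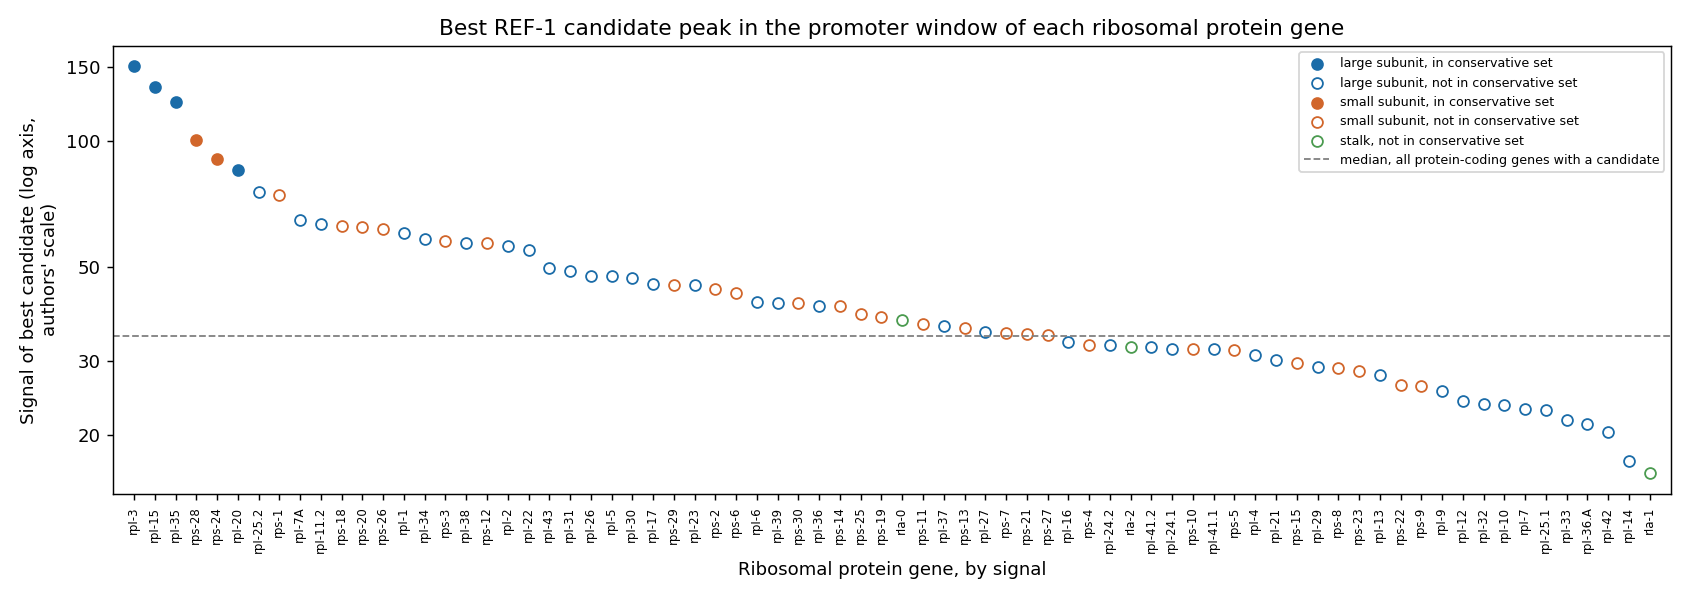
Signal of the best candidate peak (vertical, log axis, authors' scale) for each of the 74 ribosomal protein genes that had one, in falling order along the horizontal axis, coloured by subunit and filled where the peak is in the conservative set. The 6 filled points run from 150.4 at rpl-3 to 85.4 at rpl-20 and lie above every open point, the highest of which is rpl-25.2 at 75.5, and the dashed line is the median of all protein-coding genes with a candidate, 34.4.

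Below the limit, nearly every ribosomal protein gene had some candidate. The ranked list behind the conservative set holds 72151 candidates, of which 855 had a score of at least 830, and 180 of those were not in the conservative set. At least 1 candidate summit lay in the window of 74 of the 81 genes (91.4%, exact 95% interval 83.0% to 96.5%), against 12035 of all protein-coding genes, or 60.3%. When all protein-coding genes were ranked by the signal of their best candidate, with genes that had none sharing the bottom, the ribosomal protein genes had a median percentile of 72.6, against 50 for all. The upper end held more of them: 22 (27.2%) were in the first 1997 genes, against 10% of all by construction, and 5 (6.17%) were in the first 199, against 0.996%. These ranks take the best of all candidates in a window, and the members had more to choose from. The mean was 1.48 candidates per ribosomal protein gene, against 1.08 for all, and 44.4% had 2 or more, against 29.2%. How much of the higher rank goes with this was not tested.

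The candidates themselves were only slightly stronger. Among genes with a candidate the median signal was 37.8 for ribosomal protein genes (quartiles 30.3 and 55.9) and 34.4 for all protein-coding genes (quartiles 26.7 and 43.9). Of the 74, 45 lay above that median of all genes. A score of 100 or less, which marks a candidate of poor reproducibility, was found for 60.8% of the members' best candidates and 67.7% of those of all genes. By subunit, a candidate was found for 43 of the 47 large subunit genes, 28 of the 31 small subunit genes and all 3 stalk genes, with median percentiles of 71.0, 73.9 and 66.0.

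The 3 stalk genes, rla-0, rla-1 and rla-2, had none of the stronger peaks. The best candidates had signals of 37.5 at rla-0, 32.4 at rla-2 and 16.2 at rla-1, the last being the lowest of the 74. All 3 had scores of 61 or less.

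The members next in order after the 6 were not in any thresholded set. At rpl-25.2, whose human counterpart sits at the tunnel exit, the candidate had a signal of 75.5, a score of 587 and a summit at 119 bp upstream. At rps-1, a small subunit gene, it had 74.4 at chrIII:4475527-4475802 and a summit at 253 bp upstream. The rps-1 candidate had a score of 809, the closest to the limit of 830 from below, while rps-24 with 857 was the closest from above. In both genes replicate 2 had the higher value, with 52.1 against 25.6 in replicate 1 at rpl-25.2 and 44.0 against 30.4 at rps-1.

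Scores of 718 and 729 were found at rpl-11.2, which encodes a protein that binds 5S ribosomal RNA, and at rps-26, whose product lies near the exit of the messenger RNA. Their signals were 63.4 at rpl-11.2, with 33.5 in replicate 1 and 34.0 in replicate 2, and 61.8 at rps-26, with 30.6 in replicate 1 and 37.2 in replicate 2. The replicates were thus closer to each other at these genes than at rpl-25.2. The others of the first 15 were rpl-7A (64.8), rps-18 (62.8), rps-20 (62.4), rpl-1 (60.4), which encodes the protein of the mobile L1 stalk, and rpl-34 (58.4). At rpl-7A the score was only 53, with signals of 41.6 and 14.97 in the 2 inputs. A high signal in the ranked list did not always go with a high score.

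For several of these genes a neighbour had the closer start. In 3 pairs of neighbouring members, rpl-39 with rps-30, rpl-36 with rps-14, and rpl-24.1 with rps-10, both genes had the same best candidate. The rps-18 summit lay 29 bp from a start of sec-61.A, the rps-26 summit 69 bp from tmem-107, the rps-20 summit 108 bp from ekl-4 and the rpl-34 summit 231 bp from ppm-1.H. Over all 74 best candidates another protein-coding gene had a start closer to the summit in 26 (35.1%), against 17.5% of the best candidates of all genes. Ribosomal protein genes also lay in denser surroundings. The median distance from the 5′ end to the nearest start of another protein-coding gene was 625 bp for ribosomal protein genes and 2032 bp for all protein-coding genes, and 59 of the 81 (72.8%) had such a start within 1000 bp, against 24.6% of all.

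Candidates were frequent in dense and in open surroundings alike. With another start within 1000 bp, 54 of 59 ribosomal protein genes (91.5%) had a candidate, against 65.1% of all protein-coding genes so placed. Without one, 20 of 22 (90.9%) had a candidate, against 58.7%. For the conservative set the counts were 4 of 59 (6.78%) with a close neighbour, against 2.36%, and 2 of 22 (9.09%) without, against 1.12%.

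Of the 7 ribosomal protein genes with no candidate in the window, 3 were large subunit genes besides the paralogue rpl-11.1, namely rpl-18, rpl-19 and rpl-28, and 3 were small subunit genes, rps-0, rps-16 and rps-17. The replicates' own lists still held an entry for 5 of the 7. Their signals were 25.9 at rps-16 and 17.0 at rpl-18 in replicate 1, and 17.0 at rpl-19, 15.2 at rpl-11.1 and 13.7 at rpl-28 in replicate 2. Each was in 1 replicate only. The genes rps-0, which encodes the counterpart of the human laminin receptor protein RPSA, and rps-17 had no entry in either.

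Genes that share a symbol stem did not always have like values. The pair rpl-11.2 and rpl-11.1 differed most, with 63.4 for rpl-11.2 and no candidate for rpl-11.1. At rpl-25.2 the signal was 75.5, against 22.9 at rpl-25.1. The values were close at 2 other pairs, with 32.6 at rpl-24.2 and 32.1 at rpl-24.1, and with 32.3 at rpl-41.2 and 32.0 at rpl-41.1. At rpl-36 it was 40.5 and at rpl-36.A 21.2, and at rpl-7A 64.8 and at rpl-7 23.1, and both these pairs are named after human proteins that are distinct from each other. The sources used here do not say how reads from near-identical copies were assigned.

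Peaks of the conservative set also lay just beyond the windows of 4 members. A peak of 141.8 lay 1867 bp downstream of the start of rpl-22, at a tRNA gene. The summit nearest to rps-16, with 85.6 at 1761 bp upstream, was 79 bp from the start of fib-1, which encodes fibrillarin, the methyltransferase of snoRNA-guided ribosomal RNA modification. That of rpl-27, with 59.0 at 703 bp downstream, was 75 bp from a start of egl-30, which encodes a G protein subunit. The fourth, of 81.2, was 956 bp downstream of the start of rps-27, and no protein-coding start was closer. Of the genes that the symbol rule leaves out, ubl-1 had a candidate of 39.5 and ubq-2 one of 27.4, neither in the conservative set, and rack-1 had none.

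The 6 thresholded summits shared a position. All 6 lay between protein-coding genes and between 462 and 267 bp upstream of a start, with a median of 368.5 bp upstream. Among the other 68 members with a candidate, 21 (30.9%) had their best summit from 500 to 251 bp upstream. Among all protein-coding genes of the conservative set with a summit away from small RNA genes, 53 of 207 (25.6%) did, and their median was 263 bp upstream.

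**Figure D2:**
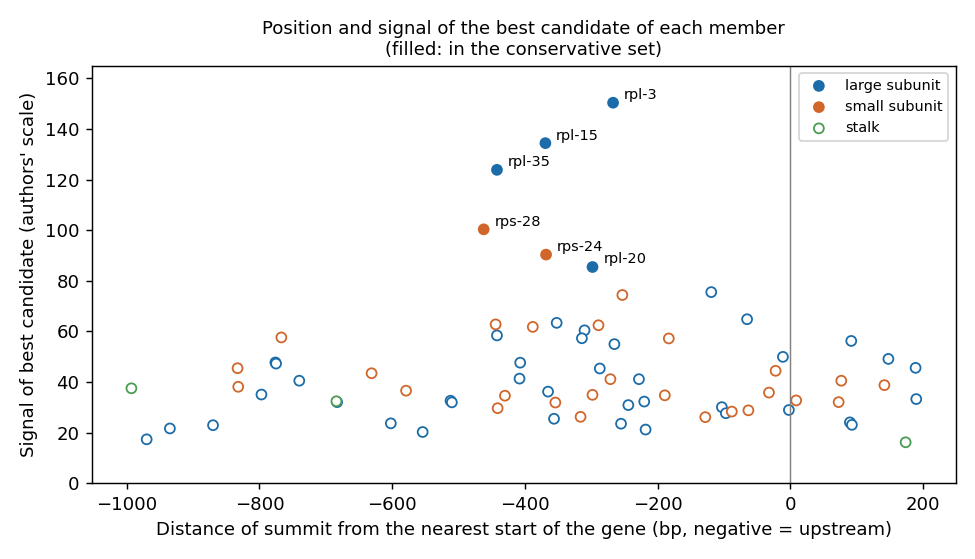
Signal of the best candidate (vertical, authors' scale) against the distance of its summit from the nearest start of the gene (horizontal, bp, negative upstream) for the 74 ribosomal protein genes, coloured by subunit. The 6 filled points, in the conservative set, lie between 462 and 267 bp upstream, and the open points spread from 993 bp upstream to 190 bp downstream.

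Over all 74 best candidates the position differed less from that of other genes. The median summit lay 304 bp upstream for ribosomal protein genes (quartiles 498 and 98.5 bp upstream) and 346 bp upstream for all protein-coding genes (quartiles 651 and 62 bp upstream). The bin from 500 to 251 bp upstream held 27 of the 74 (36.5%), against 21.7% of all. The bin from 750 to 501 bp upstream held 12.2%, against 18.5%, and the bin from 250 to 1 bp upstream 23.0%, against 22.7%. A summit within 100 bp of an annotated start was found for 14 of the 74 (18.9%), against 19.4% of all genes with a candidate. Annotated starts were thus not favoured, and where transcription begins was not measured. Best summits fell between protein-coding genes in 56.8%, against 49.9%, in an exon of another gene in 20.3%, against 15.5%, and in an intron of the gene itself in 4.05%, against 10.2%.

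Candidates were denser around ribosomal protein genes on both sides of the start, not in the promoter alone. Counted from the 5′ end in bins of 100 bp, ribosomal protein genes had a mean of 11.6 summits per 100 genes per bin in the 1000 bp upstream, against 7.07 for all protein-coding genes, a ratio of 1.64. From 2000 to 1001 bp upstream the mean was 11.0, against 6.91, a ratio of 1.59. Over the 1000 bp downstream it was 12.2, against 7.27, a ratio of 1.68. The ratio in the stretch from 500 to 201 bp upstream, which spans the positions of the 6 thresholded summits and was singled out after they were seen, was 2.18.

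**Figure D3:**
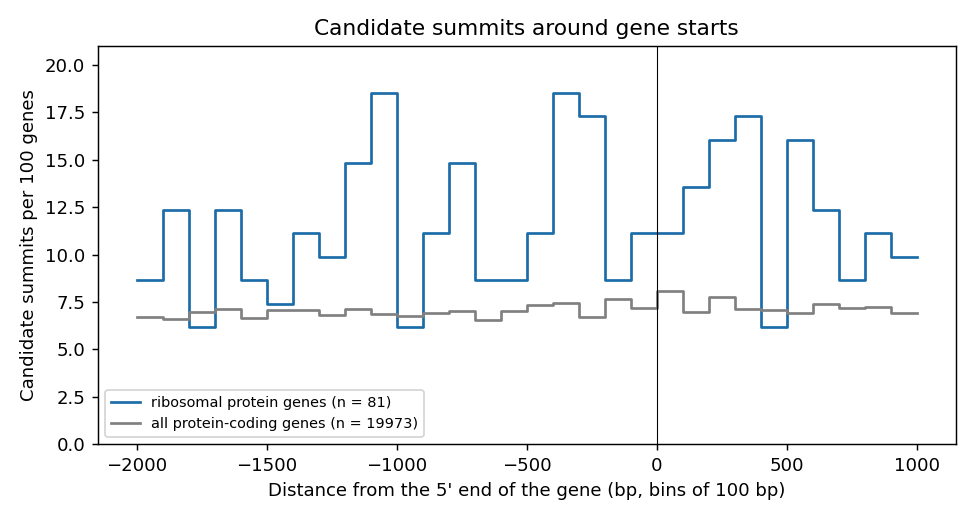
Candidate summits per 100 genes (vertical) in bins of 100 bp by distance from the 5′ end of the gene (horizontal) for the 81 ribosomal protein genes and all 19973 protein-coding genes. The line of the ribosomal protein genes lies above the nearly flat line of all genes in most bins and reaches 18.5 both at 400 to 301 bp upstream and at 1100 to 1001 bp upstream.

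The 6 genes were found on chromosomes III and IV only. They were 2 of the 18 ribosomal protein genes of chromosome III and 4 of the 18 of chromosome IV. None of the 25 on chromosome I, 10 on II, 8 on V and 2 on X had a conservative peak in the window. Among all protein-coding genes the share was 2.08% on III, 1.28% on IV, 1.95% on I, 1.42% on II, 0.941% on V and 1.28% on X. With shares this low and so few members on each chromosome, a count of 0 on I, II, V or X says little. Median percentiles of the members were 80.3 on III, 75.8 on IV, 75.6 on V, 72.9 on X, 66.4 on I and 51.8 on II.

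Both replicates listed an entry for 43 of the 81 genes, while 32 were in the list of 1 replicate and 6 in neither. Replicate 1 had an entry for 58 ribosomal protein genes (71.6%), against 48.7% of all protein-coding genes, and replicate 2 for 60 (74.1%), against 48.3%. At the 43 genes the signal in replicate 2 was a median of 1.14 times that in replicate 1, against 1.16 times at the 6235 such genes overall. The summits of the replicates lay within 50 bp of each other at 14 of the 43 (32.6%), against 29.5%. Across these genes, which share their libraries, Spearman's rho between the replicates was 0.32 for the ribosomal protein genes and 0.30 for all genes. All 6 genes of the conservative set are among the 43. Among the 37 outside the set the summits lay within 50 bp at 10 (27.0%), against 27.0% of all such genes outside it, and rho was 0.12, against 0.20.

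**Figure D4:**
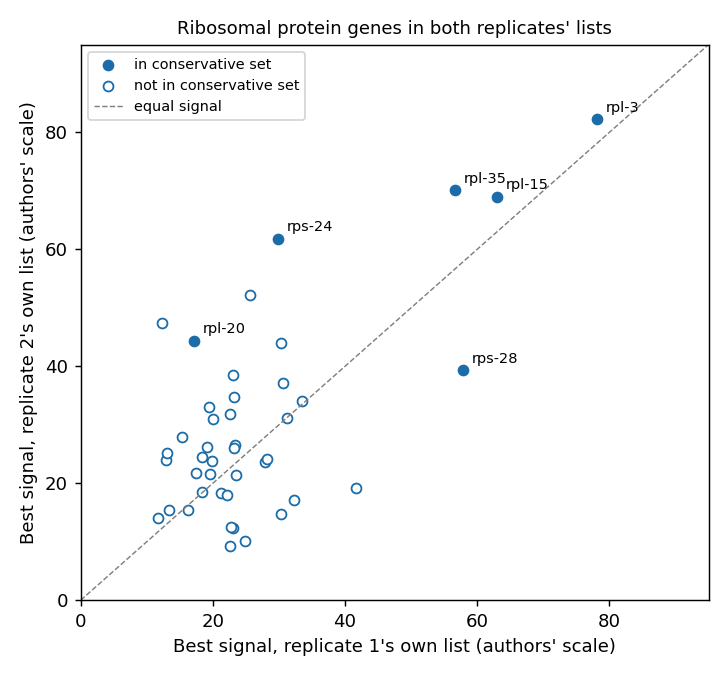
Best signal in the window in the own ranked list of replicate 1 (horizontal) and replicate 2 (vertical), both on the authors' scale, for the 43 ribosomal protein genes in both lists, filled where the gene is in the conservative set. The points of rpl-3, rpl-15 and rpl-35 stand apart at the upper right near the dashed line of equal signal, rps-28 lies to its right with 57.8 and 39.4, and rps-24 and rpl-20 lie above it. For rpl-20 the replicate 1 value is that of another entry in the window, 837 bp upstream.

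The words in capitals lay close together at some of the 6 genes. At rpl-15 the word TACGGT started 1 bp before the summit, GCGTGT 19 bp after it, and AGTGTA 29 and 40 bp after it. At rpl-20 AGTGTA started 18 bp and TACGGT 5 bp before the summit, with GCGTGT on the other strand 7 bp after. At rpl-35 GCGTGT and AGTGTA were present. The window of rps-28 held GCCTAAA alone. That of rps-24 held none of the 4 and instead held 5 copies of CCCCTTTT, a repeat found at least 3 times in the window of 28 of all 12035 best candidates (0.233%), and also noticed after the sequence was seen.

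The same words were counted at the other members, over all genes and at other peaks. AGTGTA was in 4 of the 6 windows but in 4 of the 68 windows of the other members (5.88%), against 7.05% of the best summits of all genes. GCGTGT was in 4 of the 6 and in 5 of the 68 (7.35%), against 5.57%. GCCTAAA was in 3 of the 6 and in 9 of the 68 (13.2%), against 2.93%, and TACGGT in 3 of the 6 and 13 of the 68 (19.1%), against 6.24%. In the 500 bases before the 5′ end, with or without a peak, GCCTAAA was found for 29 of the 81 (35.8%), against 5.81% of all protein-coding genes, TACGGT for 36 (44.4%), against 13.9%, and GCGTGT for 18 (22.2%), against 9.56%. AGTGTA was found there for 9 of the 81, against 17.7% of all. In 300 bases at the 5′ end, 250 before and 50 after it, GCGTGT was found for 6 of the 81 (7.41%), against 6.44% of all. The higher share of GCGTGT thus depended on the stretch searched. The same 300 bases held TACGGT for 13 (16%), against 8.11%, GCCTAAA for 18 (22.2%), against 3.04%, and AGTGTA for 3 (3.7%), against 10.8%. The 161 other promoter peaks of the conservative set held GCCTAAA in 3.73%, TACGGT in 6.83%, GCGTGT in 13.7% and AGTGTA in 7.45%. Since the words were picked from these windows, the shares are descriptions.

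Sites of the kinds that HES and other basic helix-loop-helix proteins are known to bind were not more frequent in the 74 best windows than in those of all genes. Some of the 5 words searched overlap each other, and the differences were not tested. The share of CACGCG was near that of all genes, and those of CACGNG and CACNAG rest on 10 and 13 windows. In other windows some of the words were more frequent than over all genes. The letters CACGCG were in none of the 6 windows and in 3 of the 74 best windows (4.05%), against 4.39% of all best summits, and in 15.5% of the 161 other promoter peaks. CACGTG was in none of the 6 and 1 of the 74 (1.35%), against 5.09%. CACGNG, which includes both, was in rpl-15 of the 6 and in 13.5% of the 74, against 17.3%. CACNAG, which overlaps CACGNG in CACGAG, was in 2 of the 6 and in 17.6% of the 74, against 21.7%. The general E-box CANNTG, which includes CACGTG, was in 1 of the 6 and in 36.5% of the 74, against 57.0%. All were searched on both strands of the 201 bases. In the 500 bases before the 5′ end, where no summit was required, CACGCG was found for 10 of the 81 genes (12.3%), against 7.45% of all protein-coding genes, and CACNAG for 34 (42.0%), against 37.4%. There CACGTG was found for 1 (1.23%), against 8.61%, CACGNG for 21 (25.9%), against 28.7%, and CANNTG for 58 (71.6%), against 83.1%.

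Of the other listed words, 3 had shares near those of all best summits and 1 a lower one. CCGCCC was in rps-28 of the 6 and in 6.76% of the 74, against 6.83%, GAGAGA in 1 of the 6 and 14.9%, against 14.7%, and TGGGAA in rpl-35 and 16.2%, against 13.2%. A run of 8 T was in none of the 6 and in 9.46%, against 17.0%, and in the 500 bases before the 5′ end it was found for 34.6% of the 81 genes, against 49.4% of all. The GC content of the windows was 44.1% ± 3.22 for the 6 (SD over windows), 40.6% ± 6.41 for all 74 members' windows, 39.4% ± 7.10 for all best summits and 45.0% ± 7.32 for the 161 other promoter peaks.

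Other parts of the translation machinery and other housekeeping complexes give a scale for these counts. Among 41 genes for translation factors, 4 (9.76%) were in the conservative set, 80.5% had a candidate and the median percentile was 70.9. The 4 were eif-3.C (122.0), which encodes a subunit of initiation factor eIF3, iff-2 (98.0), an eIF5A gene, erfa-3 (75.8), a release factor gene, and eif-2Bgamma (59.9), whose summit lay at the snRNA gene sup-39. Among 70 genes for mitochondrial ribosomal proteins 2 (2.86%) were in the set, mrpl-39 (89.1) and mrpl-23 (117.1, at a snoRNA gene), 74.3% had a candidate and the median percentile was 56.3. Of 32 aminoacyl-tRNA synthetase genes 1 was in the set, ears-2 with 248.2, and of 24 nucleolar assembly genes 1, fib-1 with 85.6. None of 10 genes for subunits of RNA polymerases I and III, 33 for proteasome subunits and 20 for subunits of the vacuolar ATPase was in it, and 90%, 72.7% and 65% of these had a candidate. In the other thresholded set of the pair the count was 2 for translation factors, 1 for mitochondrial ribosomal proteins and 1 for proteasome subunits. The counts of the other comparison lists were the same in both sets. The translation factors and the polymerase subunits thus had median percentiles, 70.9 and 75.7, near the 72.6 of the ribosomal protein genes, and the differences between lists were not tested.

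**Figure D5:**
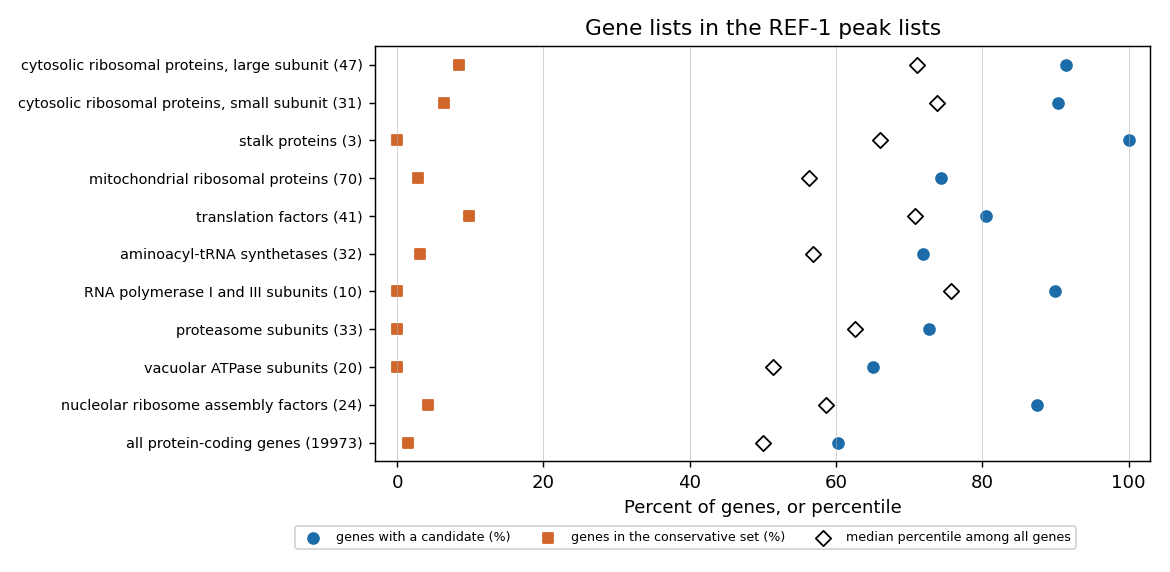
Percent of genes with a candidate (circles), percent in the conservative set (squares) and median percentile among all protein-coding genes (diamonds) for the ribosomal protein genes by subunit and for the comparison lists, with the number of genes in brackets and all protein-coding genes at the bottom. Large and small subunit genes have a candidate in 91.5% and 90.3%, against 60.3% of all genes, and 8.51% and 6.45% are in the conservative set, against 1.42%.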

How the data were processed

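REF-1 ChIP-seq peak lists on ce11 were analysed for 2 biological replicates of 1 group. Per the file headers and accompanying notes, the authors made them from filtered alignments and a control file. For each replicate and for the pair they deposited ranked lists and thresholded sets, ordered by IDR. The deposited signal is the authors' value per peak on an unstated scale, and the depth behind it is unknown. The deposited score is the authors' log-scaled global IDR, with 1000 as its maximum, and the ranked lists also hold the deposited −log10 of the global IDR. The sources used here name neither the aligner nor the peak caller. The replicate behind each of the 2 input signals in the ranked list of the pair is not stated, so replicate values came from each replicate's own list, and the replicates were not pooled here. At rpl-3, rpl-15, rpl-35, rps-28 and rps-24 the 2 input signals equalled the own values of replicate 1 and replicate 2, in that order. At rpl-20 the second input signal, 44.4, equalled the own value of replicate 2. Where the best entries of the replicates lay at different positions, their values describe different entries.

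Gene models were from Ensembl release 115 (WBcel235). A gene was counted where a summit lay from 1000 bp upstream to 200 bp downstream of any transcript start, and distances refer to the nearest start of that gene. Small RNA genes counted as near within 100 bp. Counts over the members stand beside the same counts over all protein-coding genes, with no test. Intervals are exact 95% binomial (Clopper-Pearson). Python 3.11.15, numpy 2.4.6, pandas 2.3.3 and scipy 1.17.1 were used, and the functions were tested on simulated data.

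The members, comparison lists, motifs and tests were chosen with earlier results of these data known. The genes named are those in any thresholded set, then the others of the first 15 by signal, those with no candidate, paralogue pairs, and those with a thresholded summit within 2000 bp of a start but outside the window. The stalk genes, the genes outside the symbol rule and the called genes of the comparison lists were named in addition, after their values were seen. The summit sequence of rpl-3 is not reported here. Alternatives comprised other sets, thresholds, windows, start definitions, rank measures and each replicate alone.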

Additional observations from a re-analysis of the deposited data

How the results depend on the processing

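The count of 6 ribosomal protein genes in the conservative set was within 1.5 times of itself under 8 of 11 alternatives, and ranged from 3 to 7. It was 3 with a global IDR of at most 0.001 and 3 among the set's peaks above its median signal, and 3 to 4 with 1 replicate left out. The share of all protein-coding genes, 1.42% in the main setting, was 0.476% with a global IDR of at most 0.001, 0.721% among the peaks above the median signal, 0.961% and 2.26% with windows of 500 and 100 bp and of 2000 and 500 bp, 1.04% without summits at small RNA genes, and 0.651% to 0.931% with 1 replicate left out. The ratio of the members' share to that of all genes was 5.21 in the main setting and 3.82 to 7.79 under the alternatives. When each summit was given only to its nearest start the count was again 6, with rps-27 in place of rpl-20. The rps-27 summit lay 956 bp downstream of the start, beyond the 3′ end of the gene and outside the promoter window.

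A candidate was found for 58 to 79 members (71.6% to 97.5%) under the 6 alternatives, against 42.6% to 77.2% of all protein-coding genes, the lowest and the highest with the window of 500 and 100 bp and that of 2000 and 500 bp. The median percentile of 72.6 was 76.8 with the window of 500 and 100 bp, 75.9 with that of 2000 and 500 bp, 69.5 when ranked by score, 76.1 with the 5′ end of the gene only, 74.8 without entries that share both input signals with another entry (an alternative chosen after seeing the data), and 70.9 to 73.3 with 1 replicate left out. With 1 replicate left out the median of all protein-coding genes was 25.6 to 25.9, not 50. Only 48.3% to 48.7% of all genes then had a candidate, and the rest shared the bottom. With the window of 500 and 100 bp that share was 42.6%, so 50 is not the reference there either. Summits within 50 bp of a start numbered 5 (6.76%), against 9.99% of all genes with a candidate, and within 200 bp 24 (32.4%), against 36.8%. No paired analysis was possible because there was 1 group. With 2 replicates of unknown depth, a gene outside the sets was not detected there and is not shown to be unbound.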
